A study of Mus musculus with 8 samples.

Results

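Bone marrow-derived macrophages (BMDM) are mouse macrophages grown from marrow precursors, here in medium conditioned by L929 cells, a fibroblast line that secretes the growth factor CSF1. The response to lipopolysaccharide (LPS) was taken from the 4 BMDM libraries of the 8 in the series, 2 unstimulated (0 h, called rest below) and 2 collected 3 h after LPS, and covers all 12461 genes that passed the filter on low counts. Polyadenylated RNA was sequenced, and no genotype, strain, sex or age is given in the labels. The sources used here do not give the LPS dose. The other 4 libraries, 1 per state of the cell type labelled hMPDM and of the RAW 264.7 line (RAW, a macrophage-like mouse tumour line), served only to compare the size of the response. Nothing in the labels tells whether the 2 replicates of a state came from separate cultures. The p-values therefore reflect only how far these libraries lie apart, a spread that may be technical.

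LPS, a component of the outer membrane of Gram-negative bacteria, is passed by CD14 to the receptor TLR4 with its partner MD-2. TLR4 signals through the adaptor MyD88, which leads quickly to NF-kB and MAP kinases, and, from endosomes, through TRIF, which leads to the transcription factor IRF3 and to interferon beta. Interferon beta then acts back on the macrophage through STAT2 and IRF9 and induces a second wave of antiviral genes, while inhibitors such as IkB alpha, A20 and SOCS proteins limit both arms.

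More genes rose than fell past 2-fold after LPS, an order that turns round with library totals in place of TMM scaling. With TMM the rises were also larger than the falls by median. That comparison depends on the scaling too, because library totals would lower the log2 changes by a median of 0.37. Of the tested genes 1030 (8.27%) were higher and 525 (4.21%) lower in the edgeR quasi-likelihood test against a fold change of 2 (Benjamini-Hochberg adjusted p under 0.05), and "rose" and "fell" below refer to that test unless another is named. Counts of genes that rose or fell in each list below are to be read beside these shares of all tested genes. The median log2 change was 2.35 among all genes that rose and -1.78 among all that fell. Estimates above 6 on the log2 scale were found for 90 genes that rose and for 3 that fell, of which 36 and 3 had 3 or fewer counts in the lower state, and estimates between 1 and 2 for 412 and 349. In the weaker test against no change, 3945 genes (31.7%) were higher and 3870 (31.1%) lower. The 2 libraries of each state lay on the same side of both libraries of the other state for all 1555 genes past the over 2-fold test, which also holds for 79.7% of all tested genes.

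Library totals ran from 7977638 to 19307312 counts in BMDM, and levels below are CPM (counts scaled to a common library size) corrected by the trimmed mean of M-values (TMM), which assumes that most genes do not change. On that scale 3 counts, the level that a count of 0 allows, equal 0.145 to 0.453 CPM. These limits and the counting intervals below cover counting error only. With plain library totals in place of TMM the log2 changes would be lower by a median of 0.37, and the genes past the over 2-fold test would be 784 higher and 1120 lower, so that the higher share goes from 66.2% to 41.2%. The genes that rose made up 5.14% and 5.18% of all counts at rest, against 23.2% and 22.7% after LPS. The genes that fell went from 3.45% and 3.49% to 0.898% and 0.893%.

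**Figure D1:**
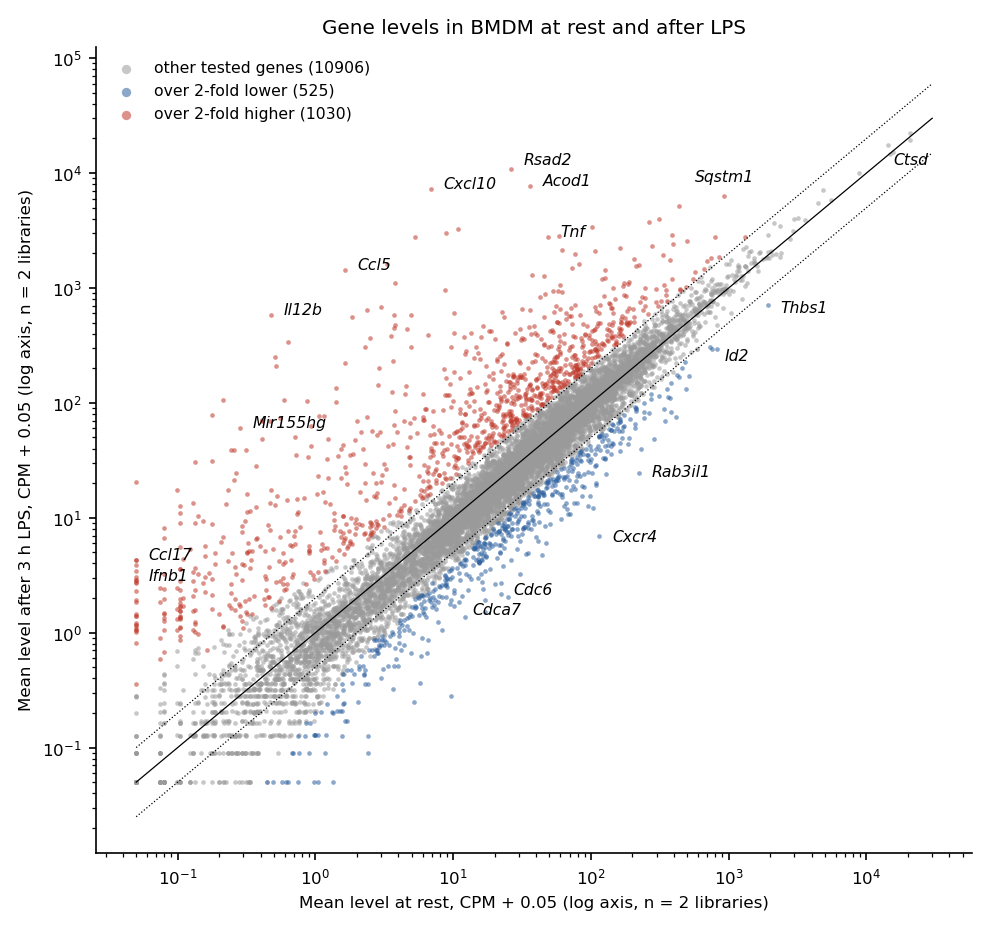
Mean CPM of each tested gene in the 2 resting libraries (x axis) and the 2 LPS libraries (y axis), both on log axes after adding 0.05. Red points are the 1030 genes past the over 2-fold test upward, blue points the 525 downward, the solid line marks equal levels and the dotted lines a 2-fold difference; the red cloud reaches much further from the line than the blue one.

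**Figure D2:**
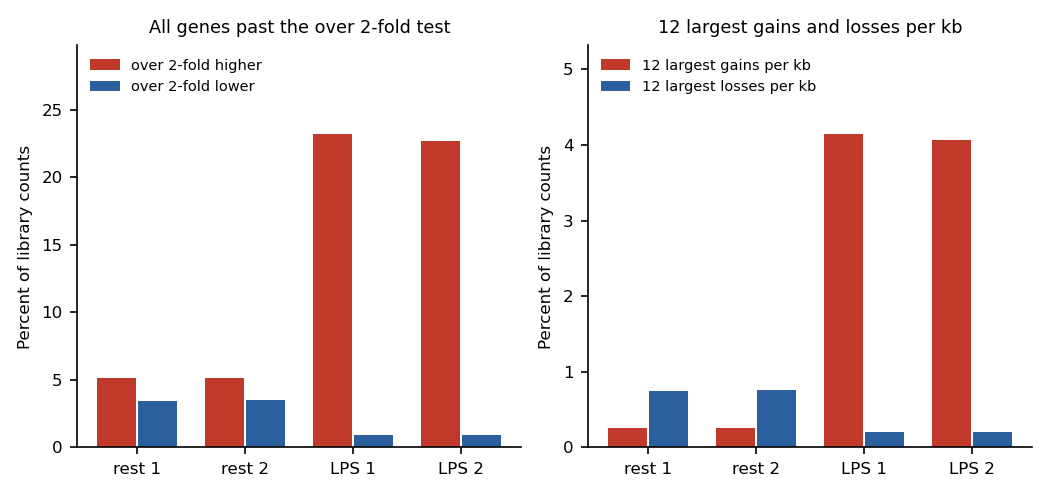
Percent of each BMDM library's counts held by genes past the over 2-fold test (left). The right panel shows the 12 of them with the largest gain and the 12 with the largest loss in CPM per kilobase. The genes that rose go from about 5% to about 23% of counts, and the 2 libraries of a state have nearly equal bars.

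Per kilobase of transcript, levels of different genes can be compared. On that scale Cxcl10, a chemokine for T cells, had the largest gain among genes that rose, from 4.53 to 4745 CPM per kilobase. Ccl4, a chemokine for monocytes and T cells, followed with 93.0 at rest and 3215 after LPS, Acod1, which makes the antimicrobial metabolite itaconate, with 13.8 and 2918. Rsad2, an antiviral radical SAM enzyme, went from 6.10 to 2489 CPM per kilobase and Ccl3 from 99.7 to 2560. For scale, the lysosomal protease gene Ctsd, abundant in both states and added after its values were seen, stood at 8207 CPM per kilobase at rest and 7760 after LPS. Sqstm1, which encodes the autophagy adaptor p62, already stood at 926 and 920 CPM at rest and reached 6230 and 6288 CPM after LPS. Those 12 genes together held 0.251% and 0.253% of counts at rest and 4.15% and 4.07% after LPS.

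Most genes of receptors and proximal signalling proteins stayed short of the over 2-fold test, and a few rose strongly. In both lists the share that rose was above the 8.27% of all tested genes. Of 18 genes for the LPS receptor complex and other Toll-like receptors 4 rose and 1 fell, with a median log2 change of 0.53. Tlr2, the receptor for bacterial lipoproteins, stood at 104 and 111 CPM at rest, against 2088 and 2067 CPM with LPS (log2 4.27, SE 0.041, edgeR adjusted p = 2.76e-33). Both LPS libraries lay far above both resting ones, but groups lay apart for every gene past the over 2-fold test and 79.7% of all tested genes. Tlr3 (2.49), a sensor of double-stranded RNA, and Tlr1 (2.10), a partner of TLR2, rose as well. Tlr5, the flagellin receptor, fell from 12.9 and 12.6 CPM to 2.72 and 1.90 CPM (log2 -2.54, SE 0.18, edgeR adjusted p = 1.61e-08). Tlr13, a sensor of bacterial ribosomal RNA, had 385 and 401 CPM at rest, against 186 and 188 CPM with LPS, which passed the test against no change (log2 -1.07) but not that against 2-fold (edgeR adjusted p = 0.11), although it did with library totals or with no filter on low counts.

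Of 28 genes for adaptors, IRAK and TRAF proteins and their kinases 11 rose and 1 fell (median 0.64). Traf1, an adaptor of TNF receptors, went from 3.65 and 3.54 CPM to 221 and 238 CPM (log2 6.0). It was followed by the ubiquitin ligase gene Peli1 (3.69), the NOD kinase gene Ripk2 (3.52), Map3k8 (2.82), which encodes the kinase that connects NF-kB1 to ERK, and Ikbke (2.66), a kinase of the interferon pathway. Peli2, a paralog of Peli1, fell from 31.7 and 30.1 CPM to 10.9 and 9.57 CPM (log2 -1.62), so the 2 Pellino genes moved in opposite directions. Myd88, added to the named genes after its values were seen, rose by 2.36, while the other adaptor gene, Ticam1 (TRIF), had 41.5 and 38.4 CPM at rest, against 44.6 and 44.8 CPM with LPS (log2 0.17). Irak4 (-0.34) and Traf6 (0.28), the kinase and the ubiquitin ligase just downstream of MyD88, did not pass the over 2-fold test.

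NF-kB genes rose nearly as a family, with 10 of 11 past the test and a median of 2.59. The inhibitor genes led. Nfkbia, which encodes IkB alpha, went from 57.8 and 61.1 CPM to 1069 and 1061 CPM (log2 4.16, SE 0.043). Nfkbiz, which encodes a nuclear IkB protein that is needed for a set of late genes, went from 9.45 and 10.8 CPM to 409 and 403 CPM (5.32), and Nfkbie rose by 4.51. Among the subunits Nfkb2 rose by 3.50 and Relb by 3.10. Nfkbid, with 19.1 and 17.3 CPM at rest, against 40.0 and 37.7 CPM with LPS, stayed short of the over 2-fold test (log2 1.09, edgeR adjusted p = 0.32).

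Feedback genes rose in 12 of 26 cases and fell in 1. Socs3, an inhibitor of JAK signalling from interleukin 6 family receptors, went from 3.29 and 4.02 CPM to 587 and 566 CPM (log2 7.28), and Usp18, which restrains the interferon receptor, rose by 5.96. Socs1 (5.49), Cish (4.56) and Tnfaip3 (4.27), which encodes A20, followed. Trib1 had 19.6 and 20.2 CPM at rest, against 7.41 and 7.99 CPM with LPS, and was the member that fell (-1.35).

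The list of MAP kinase phosphatases, which also holds other regulators such as Spred1, was split. Of 14 genes 3 rose and 3 fell (median -0.46). Dusp2 rose by 3.02, Spred1 by 1.69 and Dusp16 by 1.43. Dusp6, a phosphatase of ERK whose own level follows ERK activity, fell from 109 and 108 CPM to 20.4 and 19.5 CPM (log2 -2.45, SE 0.068, edgeR adjusted p = 3.94e-18), and Dusp7 fell by 1.71 on the log2 scale. Dusp1, an early phosphatase of p38, had 30.1 and 32.7 CPM at rest and 50.3 and 40.7 CPM at 3 h (log2 0.49).

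Of 15 genes for proteins that destroy cytokine mRNA 5 rose and 2 fell. Zfp36, which encodes tristetraprolin, went from 71.0 and 73.8 CPM to 488 and 491 CPM (log2 2.76), and the Regnase genes Zc3h12c and Zc3h12a rose by 3.21 and 2.68. Zfp36l2 and Zfp36l1, paralogs of Zfp36, moved the other way. Zfp36l2 went from 158 and 168 CPM to 48.7 and 40.8 CPM (-1.90) and Zfp36l1 from 38.8 and 44.0 CPM to 14.7 and 11.5 CPM (-1.72).

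Immediate early genes and their relatives changed in both directions. Among AP-1, ATF and MAF factors 7 of 20 rose and 3 fell, and among EGR, NR4A, IER and KLF genes 7 of 27 rose and 3 fell. Egr1 had 4.24 and 4.89 CPM at rest, against 4.08 and 4.35 CPM with LPS (log2 -0.11, not called by either test), and Fos (-0.73) and Jun (-0.46) were lower in the test against no change. Batf2 (4.62), Batf (2.87), Jdp2 (2.67) and Junb (2.65) rose, as did Gadd45b (4.97) and the nuclear receptor gene Nr4a3 (4.76). Myc, a driver of cell growth, fell from 48.1 and 52.2 CPM to 8.01 and 9.41 CPM (log2 -2.49, SE 0.098). Ier5l, at 3.53 and 3.73 CPM at rest, fell by 3.50 on the log2 scale.

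Cytokine genes rose more often than they fell. Of 25 tested genes for interleukins, growth factors and interferon beta 15 rose and 3 fell (median 1.94), of 23 TNF superfamily genes 11 rose and 0 fell, and of 12 interleukin 1 family genes 5 rose and 0 fell. Il12b (log2 10.46) and Il6 (9.26) had the largest fitted rises in the first list among genes with more than 3 reads at rest. Edn1, the gene of the vasoconstrictor endothelin 1, had 1 read in each resting library (0.0598 and 0.0485 CPM) and 12.4 and 12.7 CPM after LPS, a ratio of 235 with a counting interval of 64.3 to 1949. Csf3, which encodes the neutrophil growth factor G-CSF, was not counted at rest and had 0.907 and 1.34 CPM after LPS, at least 14.9-fold higher against 3 counts over the 2 resting libraries. Ifnb1 itself, also not counted at rest, rose to a low level of 2.72 and 3.32 CPM after LPS, at least 38.8-fold higher.

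Il1b, the gene of interleukin 1 beta, went from 2.15 and 1.45 CPM to 555 and 553 CPM (log2 8.28). In the TNF superfamily Tnfsf10, the gene of the death ligand TRAIL, rose by 7.57, Tnfsf15 by 7.27 and the costimulatory receptor gene Cd40 by 7.01. Tnf, although far more abundant, started from 50.0 and 47.6 CPM and reached 2845 and 2719 CPM (5.84). Il16 (-1.56), which encodes a T cell attractant, and Vegfa (-1.49), the gene of the main growth factor of blood vessels, fell.

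Chemokine genes rose in 10 of 13 cases in the CC family (median 3.05) and in 8 of 11 in the CXC and CX3C families (median 5.28), with 0 falling. Cxcl2, a neutrophil chemokine, went from 3.05 and 4.31 CPM to 449 and 446 CPM (log2 6.90), Cxcl3 rose by 7.55 and Cxcl9 by 6.39. Ccl3 went from 76.1 and 76.6 CPM to 1997 and 1925 CPM (4.68). Ccl17, a chemokine for T helper cells, was not counted at rest and had 4.53 and 3.95 CPM after LPS, at least 51.7-fold higher. Ccl6 and Pf4, already abundant at rest, had log2 values of 0.14 and 0.39 and stayed short of the over 2-fold test. Reads shared by close paralogs, such as Ccl3 and Ccl4, could be split between them in the counting.

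Interferon-induced genes rose nearly throughout. Of 74 tested interferon-induced effector genes 65 rose and 0 fell (median log2 3.37), which stands against 8.27% of all tested genes that rose. Their summed level went from 3031 and 3034 CPM to 39070 and 36694 CPM. Ifit1, whose product binds viral RNA, went from 4.48 and 6.06 CPM to 2884 and 2702 CPM (9.02, SE 0.067), Cmpk2, an antiviral nucleotide kinase gene, from 8.07 and 9.54 CPM to 3134 and 2851 CPM (8.39). Both LPS libraries lay above both resting ones for each of these genes, but groups lay apart for every gene past the over 2-fold test and 79.7% of all tested genes. Isg15, a ubiquitin-like modifier, went from 4.78 and 5.04 CPM to 581 and 579 CPM (6.88). Ifitm2 and Ifitm1 had log2 values of 0.36 and 0.39 and stayed short of the over 2-fold test.

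Guanylate-binding proteins and immunity-related GTPases, which attack the vacuoles of intracellular pathogens, rose in 15 of 18 cases (median 4.77, 0 fell). Gbp2b went from 3.17 and 3.39 CPM to 1652 and 1574 CPM (log2 8.93) and Tgtp1, not counted at rest, reached 2.87 and 2.77 CPM, at least 34.9-fold higher. Cytosolic nucleic acid sensors and their partners rose in 26 of 30 cases (median 2.46, 0 fell). Ifih1, which encodes the RNA sensor MDA5, went from 32.3 and 30.7 CPM to 678 and 647 CPM (4.39), and Zbp1, a sensor of Z-form nucleic acid, rose by 4.73. The adaptors behind these sensors behaved otherwise: Mavs had 74.1 and 79.5 CPM at rest, against 63.5 and 58.4 CPM with LPS (log2 -0.35) and Tmem173, the gene of STING, 35.0 and 35.3 CPM and then 32.5 and 32.1 CPM (-0.13, not called by either test). Reads of paralogs in the Ifi200, Gbp, Tgtp, Oas, Slfn and Trim30 families can be shared in the counting.

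Among the transcription factors and kinases of the interferon pathway 10 of 19 rose and 0 fell (median 1.39). Irf7, the amplifier of type I interferon, went from 6.82 and 6.25 CPM to 388 and 395 CPM (log2 5.91, SE 0.063), and Irf1 from 37.2 and 37.1 CPM to 1267 and 1302 CPM (5.11). Stat2 went from 76.5 and 76.1 CPM to 714 and 721 CPM (3.23), and Jak2 rose by 3.05. Irf3, the factor that LPS activates through TRIF without new synthesis, had 36.9 and 35.7 CPM at rest, against 39.1 and 38.9 CPM with LPS (0.11), and Irf8 had a log2 change of -0.06. Neither was called by either test.

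**Figure D3:**
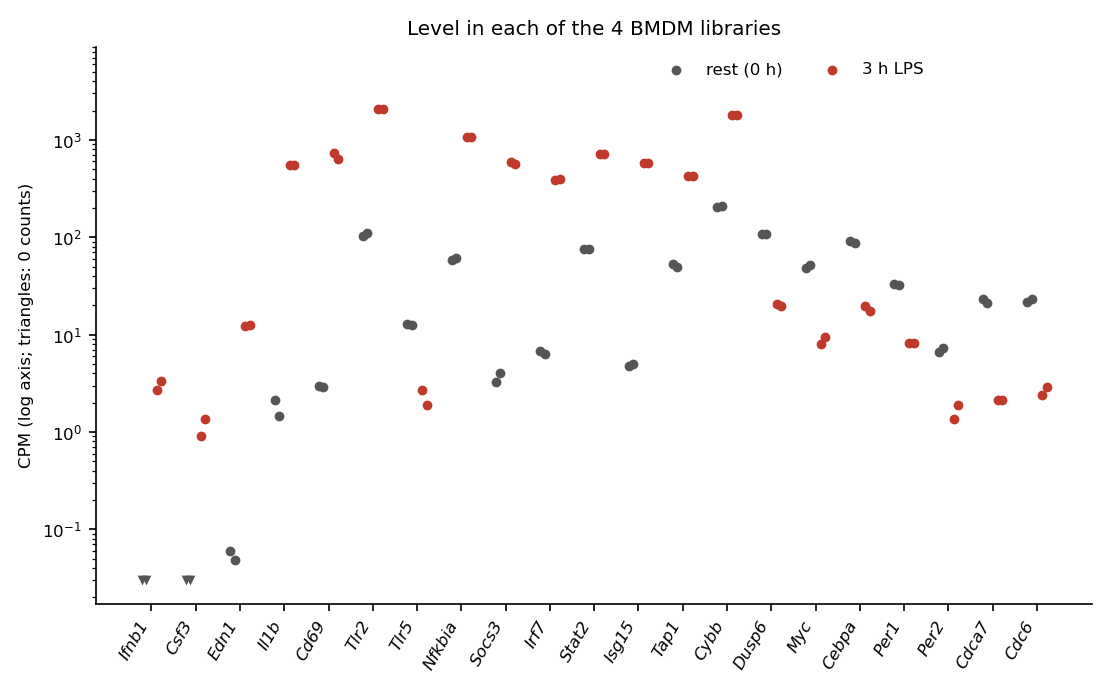
CPM of 21 named genes in each of the 4 BMDM libraries on a log axis, grey for rest and red for 3 h LPS, with triangles for 0 counts. The 2 points of a state nearly coincide for most genes. The states do not overlap for any gene shown, which holds for every gene past the over 2-fold test and 79.7% of all tested genes.

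The kB, ISRE and AP-1 motifs were more frequent in promoters of genes that rose than in all promoters. Promoters (250 bases before to 50 after the start) came from RefSeq on the GRCm38.p6 assembly, and 8831 of the 12461 tested genes had one within 1000 bases of the deposited gene start. The letters searched on both strands were GGNNTTTCC for the kB motif of NF-kB, GAAANNGAA for the interferon-stimulated response element (ISRE), TGANTCA for AP-1, TTTGGCGC or TTTCCCGC for E2F, TCACGTGA for the CLEAR element of lysosomal genes and TCACNCCAC for the sterol response element (SRE). A kB match was present in 10.2% of 723 promoters of genes that rose, 5.81% of 344 of genes that fell and 6.22% of all. An ISRE match was present in 15.9% of those that rose, 4.94% of those that fell and 7.42% of all, in 28.9% of 152 promoters of genes that rose by at least 4 on the log2 scale, and in 48.2% of 56 promoters of interferon-induced effectors. AP-1 matches stood at 9.27%, 4.94% and 4.82%. E2F matches went the other way, with 1.52% of genes that rose, 8.14% of genes that fell, 3.33% of all, and 33.3% of 45 promoters of DNA replication genes. In the mitosis list, which was lower too, 6.67% of 45 promoters had one. With the 250 bases before the start alone, E2F shares were 5.52% of genes that fell, 2.77% of all and 20% of DNA replication genes. CLEAR matches were present in 1.38% of genes that rose, 0.872% of genes that fell, 2.07% of all and 13.9% of 36 lysosome genes, and SRE matches in 1.66% of genes that rose, 0.291% of genes that fell and 1.02% of all. The 36 lysosome genes, from a list with a median log2 change of 0.03, had kB matches in 11.1%, ISRE in 16.7% and AP-1 in 13.9%. Such shares were therefore not confined to genes that rose. Matches to 2 motifs overlapped in 25 promoters. A match is a string of letters and not a measured binding site.

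**Figure D4:**
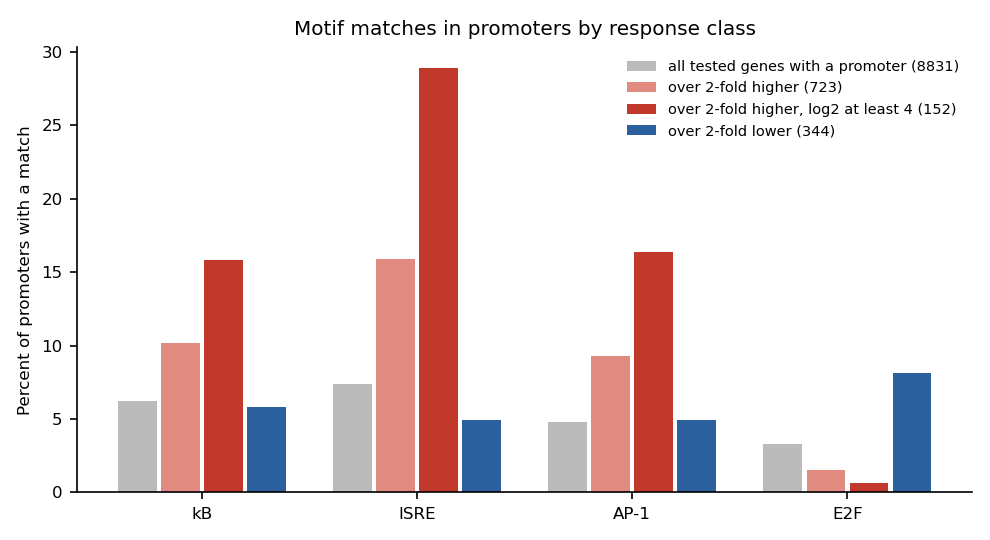
Percent of RefSeq promoters with at least 1 match to each motif (x axis), for all tested genes, genes that rose, genes that rose by at least 4 on the log2 scale and genes that fell, with the number of promoters in parentheses. The ISRE bars climb from 7.42% (all) to 28.9% (strongest rises), while the E2F bar is highest, at 8.14%, for genes that fell.

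The stretches just upstream of 8 starts are printed to show how these letters are arranged, in lower case with matches in capitals (kB, ISRE and AP-1 in the first 6, E2F in the last 2), 5′ to 3′ on the strand of the gene. The first 3 belong to the interferon arm, the next 3 to NF-kB responses and the last 2 to cell cycle genes that fell. Their coordinates are chr5:92348890-92349119 (minus strand) for Cxcl10, chr19:34640769-34640888 (plus) for Ifit1, chr4:156200819-156200918 (minus) for Isg15, chr5:90891135-90891244 (plus) for Cxcl1, chr5:90903789-90903898 (plus) for Cxcl2, chr12:55492648-55492847 (minus) for Nfkbia, chr2:109280658-109280737 (plus) for Kif18a and chr10:110745229-110745438 (plus) for E2f7.
Cxcl10: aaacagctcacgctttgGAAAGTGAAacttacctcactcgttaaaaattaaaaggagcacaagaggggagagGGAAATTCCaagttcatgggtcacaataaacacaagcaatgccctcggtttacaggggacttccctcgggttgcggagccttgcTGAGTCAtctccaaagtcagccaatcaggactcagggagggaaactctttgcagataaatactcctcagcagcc
Ifit1: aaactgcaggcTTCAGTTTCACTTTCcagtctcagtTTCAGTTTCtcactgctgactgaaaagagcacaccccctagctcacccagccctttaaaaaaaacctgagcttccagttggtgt
Isg15: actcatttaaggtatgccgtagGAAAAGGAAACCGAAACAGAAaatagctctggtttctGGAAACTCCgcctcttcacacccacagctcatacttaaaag
Cxcl1: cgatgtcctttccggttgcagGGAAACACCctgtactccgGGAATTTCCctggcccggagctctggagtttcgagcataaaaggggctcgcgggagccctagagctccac
Cxcl2: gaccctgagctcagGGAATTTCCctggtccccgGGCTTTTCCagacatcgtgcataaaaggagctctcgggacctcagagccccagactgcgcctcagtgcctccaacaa
Nfkbia: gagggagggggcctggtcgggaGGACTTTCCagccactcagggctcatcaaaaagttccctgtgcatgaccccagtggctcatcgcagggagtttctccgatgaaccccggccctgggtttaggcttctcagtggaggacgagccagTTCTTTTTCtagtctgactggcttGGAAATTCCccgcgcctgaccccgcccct
Kif18a: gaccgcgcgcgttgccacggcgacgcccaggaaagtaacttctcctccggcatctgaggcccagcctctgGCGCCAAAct
E2f7: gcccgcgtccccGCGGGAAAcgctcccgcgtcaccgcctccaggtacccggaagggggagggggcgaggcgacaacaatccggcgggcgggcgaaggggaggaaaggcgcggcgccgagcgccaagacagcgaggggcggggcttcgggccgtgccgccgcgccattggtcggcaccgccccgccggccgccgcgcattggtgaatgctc
Positions of a match's first base are counted from the start, with negative numbers upstream. Ifit1 holds 3 ISRE matches, at -109, -103 and -84, of which the first 2 overlap, and Isg15 holds 3 overlapping ones at -78, -72 and -66 and a kB match at -41. Cxcl10 holds 1 match each of ISRE (-213), kB (-158) and AP-1 (-74). Cxcl1 and Cxcl2, both on chromosome 5, each hold 2 kB matches, at -89 and -70 and at -96 and -77. Nfkbia holds 2 kB matches, at -178 and -29, and 1 ISRE match at -53. The E2F match lies at -10 in Kif18a and at -198 in E2f7.

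Several of the changes ran along chromosomes. In 17 places at least 4 neighbouring tested genes all rose past the over 2-fold test, and in 0 places did 4 neighbours all fall. The longest run, 12 genes from Aim2 to Ifi203 on chromosome 1 (173350879 to 173942672, mm10), holds the Ifi200 family of DNA sensors and had log2 changes from 1.45 upward. A run of 10 genes from Irgm1 to Ifi47 on chromosome 11 (48861968 to 49135387) rose by 2.08 or more, and 6 Ifit genes on chromosome 19 (34550694 to 34650009) by 4.49 to 9.02. Runs of 7 genes around Trim30, 6 around Phf11, 6 around Gvin1 and 6 Oas genes followed. Some runs include genes outside the named families, such as Agrn and Plekhn1, which flank Isg15 on chromosome 4 and rose by 3.24 and 1.41. Because paralogs share reads and neighbours may overlap, members of a run are not independent counts.

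Class I antigen presentation genes rose widely, whereas the class II chains stayed short of the over 2-fold test. Of 23 class I processing and immunoproteasome genes 16 rose and 0 fell (median 1.83). Tap1, a subunit of the peptide transporter, went from 53.7 and 49.9 CPM to 430 and 431 CPM (log2 3.06), and its neighbours on chromosome 17 Psmb9, Psmb8 and Tap2 rose by 1.94, 1.33 and 1.62. The class I transactivator gene Nlrc5 rose by 2.65. B2m, the shared light chain, was already at 1339 and 1458 CPM at rest and had 2086 and 2058 CPM after LPS (0.57). Of the 24 genes for class II molecules and costimulation 9 rose, all 9 of them outside the class II chains, and 0 fell. Cd69, a lectin of activated leukocytes, went from 2.99 and 2.91 CPM to 731 and 635 CPM (7.84), and Cd274, which encodes the inhibitory ligand PD-L1, went from 83.4 and 81.4 CPM to 1635 and 1598 CPM (4.29). Slamf1, a receptor of lymphocytes and phagocytes, had 0 and 1 reads at rest and 2.27 and 2.53 CPM after LPS, a ratio of 91.2 with a counting interval of 15.6 to 3677. H2-Aa had 44.8 and 40.7 CPM at rest, against 67.4 and 65.7 CPM with LPS (0.64).

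Receptors that guide migration changed in both directions. Of 23 genes for chemoattractant and trafficking receptors 6 rose and 6 fell. Ccrl2, a receptor that presents chemerin, went from 9.98 and 10.3 CPM to 616 and 592 CPM (log2 5.89), and the formyl peptide receptor genes Fpr1 and Fpr2 rose by 5.40 and 3.98. Cxcr4, the receptor for the marrow chemokine CXCL12, fell from 111 and 119 CPM to 6.80 and 7.04 CPM (-4.05). Gpr183, a receptor for oxysterols, fell from 23.9 and 25.6 CPM to 2.12 and 1.90 CPM (-3.65), the lysophosphatidic acid receptor genes Lpar5 (-3.16) and Lpar6 (-2.88) fell as well, and S1pr1, the receptor for sphingosine 1-phosphate, fell from 204 and 212 CPM to 62.1 and 68.2 CPM (-1.66). Ch25h, which makes 25-hydroxycholesterol, the precursor of the GPR183 ligand, rose from 2.03 and 1.89 CPM to 74.4 and 64.0 CPM (5.11).

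Other surface receptors rose more often than they fell. Of 34 further G protein-coupled receptors and RGS genes 9 rose and 4 fell. Adora2a, the adenosine receptor that dampens inflammation, had 2 and 1 reads at rest and 28.7 and 32.1 CPM after LPS, a ratio of 385 with a counting interval of 131 to 1874, and Gpr18 (5.20), Rgs16 (4.36) and the niacin receptor gene Hcar2 (4.29) also rose. Gpr35 fell by 2.11 on the log2 scale, but 0 of the 34 passed as lower with DESeq2, and 2 without the second LPS library or with a coefficient of variation of 10%. Adhesion genes rose in 7 of 21 cases, with Vcam1 (7.43) and Icam1 (5.60, from 57.8 and 58.7 CPM to 2789 and 2860 CPM) first. Scavenger receptors rose in 4 of 23 cases, with Olr1 at 5.10 and Marco, a receptor for whole bacteria, at 3.88 (15.3 and 10.7 CPM to 174 and 198 CPM). The mannose receptor gene Mrc1 had 2085 and 2056 CPM at rest, against 1994 and 1902 CPM with LPS (log2 -0.09).

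Clotting and fibrinolysis genes moved in both directions. In the complement, coagulation and acute phase list 12 of 31 rose and 3 fell. Plat, a plasminogen activator gene, rose from 0.179 and 0.339 CPM to 8.62 and 9.88 CPM (log2 5.08). The other plasminogen activator gene, Plau, fell from 437 and 437 CPM to 175 and 159 CPM (-1.40). Thbd, the gene of the anticoagulant thrombomodulin, fell from 17 and 16.8 CPM to 1.36 and 1.58 CPM (-3.48), and Thbs1, one of the more abundant transcripts at rest, from 1828 and 2018 CPM to 709 and 720 CPM (-1.43). Saa3, an acute phase gene, rose by 9.13, and Ptx3, a soluble pattern receptor gene with 0 and 2 reads at rest, had 2.87 and 1.90 CPM after LPS, a ratio of 41.7 with a counting interval of 10.9 to 355.

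Of 38 genes for nitric oxide, arginine, itaconate and the citric acid cycle 7 rose and 0 fell (median 0.11). Acod1 went from 38.5 and 34.1 CPM to 7647 and 7658 CPM (log2 7.73), Nos2 rose by 9.05, the arginase gene Arg2 by 4.62, the arginine transporter gene Slc7a2 by 3.38 and Gch1, which supplies the cofactor of nitric oxide synthase, by 2.30. Idh1, which acts in the cytosol, was lower in the test against no change (-0.66). In oxidative defence 8 of 29 rose and 0 fell: Sod2 went from 55.5 and 56.0 CPM to 708 and 691 CPM (3.65), the cystine transporter gene Slc7a11 from 53.4 and 59.0 CPM to 521 and 492 CPM (3.16) and Cybb, a subunit of the phagocyte oxidase, from 205 and 209 CPM to 1803 and 1800 CPM (3.12). Hmox1, heme oxygenase, had 903 and 917 CPM at rest, against 862 and 918 CPM with LPS (-0.03, not called by either test).

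Of 16 iron genes 4 rose, among them Cp (ceruloplasmin, 4.93), Lcn2 (2.58) and the metal transporter genes Slc11a2 (1.85) and Slc39a14 (1.78). Of 28 solute carriers, listed because they are known to change in activated macrophages, 11 rose and 0 fell (3 fell with library totals), led by Slc2a6 (4.31), a lysosomal hexose transporter, and Slco3a1 (4.01). In glycolysis 3 of 31 rose, a share near the 8.27% of all tested genes, and 2 with library totals. In prostaglandin synthesis 4 of 19 rose, with Ptgs2 (6.08) and Ptges (4.35) first. Of 33 cholesterol and fatty acid synthesis genes Ch25h rose, and Scd2, a fatty acid desaturase gene, fell from 855 and 798 CPM to 285 and 306 CPM (-1.48) with the elongase gene Elovl6 (-1.46).

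Transcription factors of the myeloid lineage and related regulators, called myeloid factors below, fell more often than they rose. Of 33 tested 15 fell and 6 rose (median -0.62), against 4.21% of all tested genes that fell. Id1, an inhibitor of basic helix-loop-helix factors and a target of BMP signalling, fell from 41.1 and 47.4 CPM to 4.53 and 4.90 CPM (log2 -3.22, SE 0.12), and Smad7, which limits TGF-beta signalling, by 2.51. Cebpa, a factor of early myeloid differentiation, fell from 90.8 and 87.0 CPM to 19.7 and 17.5 CPM (-2.28, SE 0.074). Bhlhe40 and Bhlhe41, which are also counted among the clock genes below, fell by 2.00 and 1.94. Id2, with the largest loss per kilobase among the genes that fell, went from 737 and 766 CPM to 301 and 290 CPM (-1.35). Maf, a factor of macrophage identity, fell from 367 and 379 CPM to 114 and 106 CPM (-1.77, SE 0.045). Mitf, in contrast, rose from 26.3 and 27.7 CPM to 178 and 163 CPM (2.65), as did Gfi1 (2.82), Tfec (1.97) and Etv3 (1.59). Spi1, the gene of PU.1, had 241 and 256 CPM at rest, against 465 and 485 CPM with LPS and stayed short of the over 2-fold test (0.94).

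Of 16 tested clock genes 7 fell, 0 rose past 2-fold, 4 more were lower and 2 higher in the test against no change, and the median was -0.97. Npas2, a partner of BMAL1, fell from 7.29 and 8.19 CPM to 1.36 and 1.03 CPM (log2 -2.76, edgeR adjusted p = 3.00e-07). Per1 fell from 33.2 and 32.0 CPM to 8.16 and 8.22 CPM (-1.99, SE 0.10), Per2 from 6.58 and 7.36 CPM to 1.36 and 1.90 CPM (-2.03), and the output factor gene Dbp from 17.5 and 14.9 CPM to 5.29 and 3.24 CPM (-2.02). Both resting libraries lay above both LPS libraries for each of them, but groups lay apart for every gene past the over 2-fold test and 79.7% of all tested genes. The other 3 were Bhlhe40, Bhlhe41 and Nr1d1 (-1.98), the last named after its value was seen. Arntl, the gene of BMAL1, had 14.2 and 13.8 CPM at rest, against 6.80 and 7.43 CPM with LPS (-0.96), and Clock and Cry2 had log2 values of 0.22 and 0.11. With DESeq2 in place of edgeR 3 members of the list passed as lower.

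Genes of DNA replication and of mitosis were lower after LPS, most of them by less than 2-fold. Of 55 DNA replication and G1/S genes 14 fell past 2-fold, a further 37 were lower in the test against no change, and 0 rose (median -0.79). Cdca7, a target of Myc and E2F, fell from 23.5 and 21.1 CPM to 2.12 and 2.14 CPM (log2 -3.37), Cdc6, which loads the replicative helicase, by 3.02, Clspn by 1.99 and E2f2 and Ccne2 by 1.87 each. The promoter of E2f7 printed above belongs to a gene, named after its values were seen, that fell from 24.9 and 25.5 CPM to 9.52 and 9.73 CPM (-1.38). Of 56 mitosis genes 8 fell past 2-fold and 1 rose (median -0.65). Kif18a, a motor of chromosome alignment, fell from 15.5 and 15.0 CPM to 4.08 and 4.03 CPM (-1.91), while Pttg1, the gene of securin, rose from 19.1 and 19.9 CPM to 57.1 and 52.6 CPM (1.47). With library totals in place of TMM 27 and 26 genes of the 2 lists fell, and with DESeq2 7 and 3. In bulk libraries, fewer cycling cells and less of each RNA per cell cannot be told apart.

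In the cyclin, CDK inhibitor and p53 list 5 of 32 rose and 5 fell, and without the second LPS library 3 rose. Cdkn1a, the gene of the CDK inhibitor p21, rose from 318 and 347 CPM to 1931 and 1969 CPM (log2 2.55). Ccnd1, the cyclin gene that growth factors induce, fell from 726 and 747 CPM to 308 and 304 CPM (-1.27), whereas its paralog Ccnd2 rose from 38.3 and 36 CPM to 111 and 99.1 CPM (1.48). The sestrin genes Sesn2 and Sesn1, stress sensors that restrain mTORC1, fell by 2.12 and 1.71. In the stress response list 3 of 26 rose and 3 fell, and the heat shock genes Hspa1b and Hspa1a, which are near-identical copies, rose by 4.40 and 3.73.

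Some large groups barely moved. Of 49 cathepsin and lysosome genes 2 rose and 0 fell (median 0.03), with Ctsc, the protease that activates granule enzymes, at 1.46, and their summed level was 97817 and 95797 CPM at rest, against 97462 and 101230 CPM with LPS. None of 65 nuclear genes of the respiratory chain passed the over 2-fold test in edgeR or DESeq2, although 41 were higher and 2 lower in the test against no change. Their median of 0.21 turns to -0.16 with library totals in place of TMM. The medians of the AP-1 (0.24), cytokine receptor (0.20), glycolysis (0.24), adhesion (0.27), G protein-coupled receptor (0.22), lysosome (0.03), arginine and itaconate (0.11) and trafficking receptor (0.13) lists turn below 0 in the same way.

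**Figure D5:**
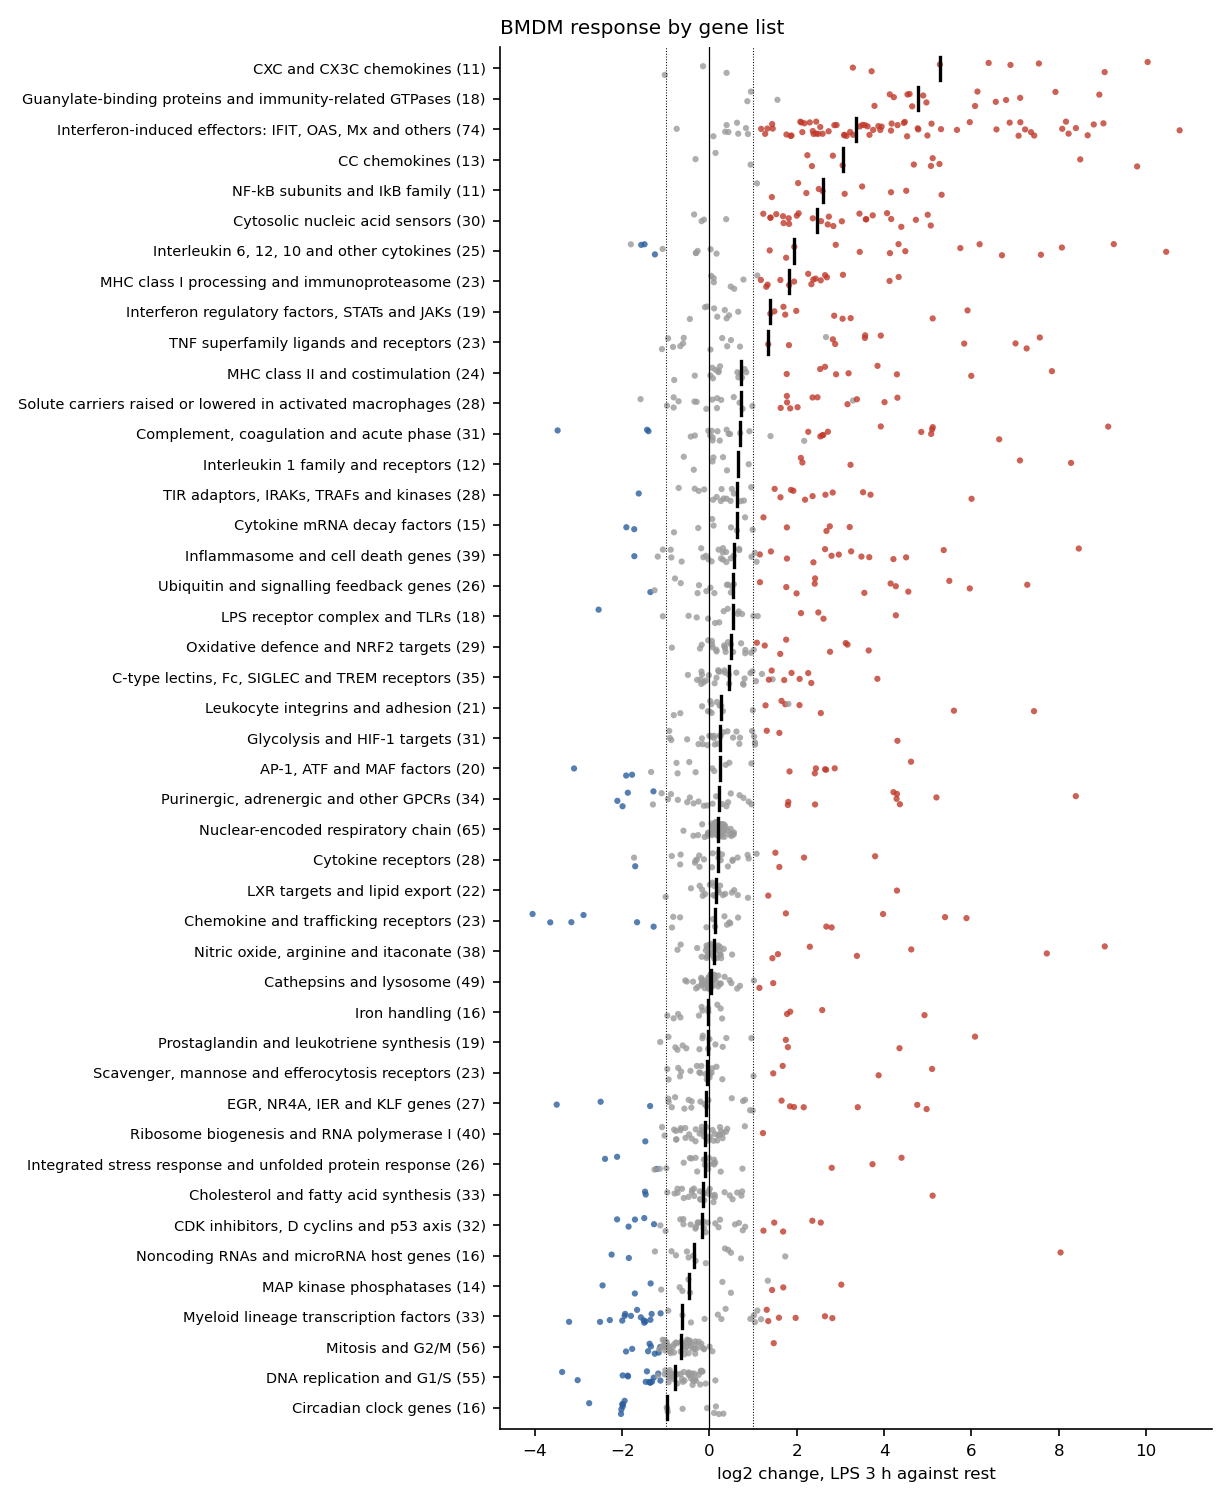
Log2 change of every tested member of each gene list with at least 10 tested genes, ordered by the list's median (black bar), with the number tested in parentheses. Red and blue points passed the over 2-fold test upward and downward and grey points did not, and dotted lines mark a 2-fold change; chemokine and interferon lists lie at the top and clock and DNA replication lists at the bottom.

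Of 548 tested long noncoding RNAs 32 (5.84%) rose and 39 (7.12%) fell, beside 8.42% and 4.08% of 11509 protein coding genes. The classes differ in level, with a median of 1.11 and 31.8 CPM in the higher LPS library of each gene. Their shares are therefore not measured with like precision. Mir155hg, the host transcript of miR-155, went from 0.418 and 0.0485 CPM to 64.1 and 56.7 CPM (log2 8.04), and AW112010 from 3.23 and 3.73 CPM to 405 and 358 CPM (6.75). F630028O10Rik, annotated as an antisense RNA, fell from 65.7 and 65.3 CPM to 19.7 and 17.4 CPM (-1.85). AW112010 was named after its values were seen. The library kit keeps strand, but whether the counting used it is not stated, so reads of F630028O10Rik and of a gene it overlaps cannot be told apart.

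The libraries looked like macrophages in both states. The 15 macrophage markers, of which 2 rose and 1 fell, summed to 19271 and 19040 CPM at rest, against 23694 and 24319 CPM with LPS, with none at 0. Markers of other cells stood far lower: 11 neutrophil genes summed to 102 and 109 CPM at rest, against 137 and 131 CPM with LPS, 12 T and NK cell genes to 9.93 to 13 CPM over the 4 libraries, 9 fibroblast genes to 1.5 to 3.33 CPM and 10 erythroid genes to 0.553 to 1.21 CPM. The 9 dendritic cell markers went from 106 and 103 CPM to 245 and 250 CPM, and 2 of the 4 tested rose. The 8 B cell markers went from 56.7 and 53.7 CPM to 40.2 and 40.9 CPM and the haematopoietic progenitor markers from 39.2 and 45.4 CPM to 23.1 and 21.4 CPM. The part of such cells in the changes above was not tested. Among markers of other cells, Hdc, the histamine-forming enzyme listed as a mast cell marker, went from 0.0598 and 0.0969 CPM to 12.1 and 14.9 CPM. The ratio was 173 with a counting interval of 58.7 to 846. In each library 6 or 7 of the 9 mast cell markers were at 0, and no other of them was tested. Of 5 tested osteoclast markers 1 rose and 1 fell. Acp5 rose from 1.20 and 1.11 CPM to 28.4 and 35.8 CPM (log2 4.83), while Ctsk (-0.26) did not pass. The 8 osteoclast markers summed to 80.9 and 79.8 CPM at rest, against 65.1 and 71.8 CPM with LPS.

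The BMDM response was set beside those of hMPDM and RAW by testing the difference of responses. These 2 have 1 library per state here and were assumed to vary as BMDM do, and all 3 responses of this fit share the spread of the BMDM pairs. The hMPDM response was higher in 494 genes (3.96%) and lower in 485 (3.89%), and the RAW response higher in 1246 (10.0%) and lower in 1586 (12.7%). DESeq2 called fewer, 120 and 144 for hMPDM and 413 and 961 for RAW, and with a coefficient of variation of 10%, in place of the 2.27% of the BMDM pairs, the counts were 50 and 73 for hMPDM and 452 and 759 for RAW.

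By list, 62 of 74 interferon-induced effectors had a lower response in RAW and 41 in hMPDM, with medians of 3.37 in BMDM, 2.62 in hMPDM and 0.42 in RAW. Among class I genes 20 of 23 were lower in RAW and 5 in hMPDM. The falls described above also differed from RAW: the response there was higher for 14 of 33 myeloid factors and lower for 8, higher for 17 of 55 replication genes and lower for 2, higher for 31 of 56 mitosis genes and lower for 1, and higher for 7 of 16 clock genes and lower for 1. Fewer of these differed from hMPDM, where 9 myeloid factors were higher and 4 lower, 2 replication genes higher and 1 lower, 4 mitosis genes higher and 0 lower and 1 clock gene higher. Myc, which fell in BMDM, had log2 values of -1.30 in hMPDM and 3.10 in RAW, each from a single pair of libraries. RAW libraries held 3116434 and 4078496 counts, so genes low in RAW are measured with less precision.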

How the data were processed

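Polyadenylated RNA of 8 mouse macrophage libraries was sequenced, and the deposited table gives whole-number read counts per gene, made by the authors. The mm10 build and the tools featureCounts, STAR, cutadapt, bedtools and SAMtools appear, without versions, in the submitters' processing notes. The strand setting of the counting is not given in the sources used here. Of 10 value columns 8 matched a sample's labels and 2 were not used. Genes Gbp5, Gbp6 and Gbp10 were not analysed here, and a few other genes are not reported here.

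From the counts, genes with enough reads were kept by edgeR's filterByExpr (12461 of 43346), scaled by TMM and fitted with edgeR 4.0.16 in R 4.3.3 (limma 3.58.1) in 1 quasi-likelihood model over all 6 groups, whose spread comes from the 2 BMDM pairs (2 residual degrees of freedom). Genes were tested against a 2-fold change (glmTreat), against no change, and for the difference between responses, with Benjamini-Hochberg adjustment over all tested genes at 0.05. The SE given is the log2 change divided by the square root of the F statistic and is not an error over replicates. TMM factors were 1.068 and 1.070 at rest and 0.830 and 0.829 after LPS, and the 2 libraries of a state differed beyond sampling noise (chi-square per degree of freedom 1.65 and 1.74). With 1 to 3 reads in a state a ratio with an exact counting interval is given, and with 0 reads a bound against 3 counts over both libraries. List medians use the fitted log2 change of such genes and not the ratio or bound.

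Up to 5 rises and 5 falls per list were named, with up to 3 members that did not pass. Among all genes past the over 2-fold test, the 12 largest changes and the 12 largest per kilobase were added in each direction. Genes with 0 counts in a state and runs of neighbours were also named. The comparison and the gene lists were chosen with earlier results of these data known. Alternatives were DESeq2 1.42.0, other scalings, no filter, BMDM alone, a replicate block, a biological coefficient of variation of 10% and leaving out each library. The fit was tested on simulated data.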

Additional observations from a re-analysis of the deposited data

Results flagged for a closer look

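The LPS response differed between BMDM and the 2 other cell types in the test of the difference itself, which flagged the following counts. Each cell type other than BMDM has 1 library per state, so its spread is assumed and not measured. Against BMDM the hMPDM response was higher in 494 genes and lower in 485, and the RAW response was higher in 1246 and lower in 1586.

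For interferon-induced effectors the hMPDM response was higher in 2 genes and lower in 41, and the RAW response lower in 62. For class I presentation it was lower in 5 genes in hMPDM and in 20 in RAW. Among myeloid factors it was higher in 9 and lower in 4 in hMPDM, and higher in 14 and lower in 8 in RAW.

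For DNA replication genes the hMPDM response was higher in 2 and lower in 1, and the RAW response higher in 17 and lower in 2. For mitosis genes it was higher in 4 in hMPDM, and higher in 31 and lower in 1 in RAW. Among 33 cholesterol and fatty acid synthesis genes, whose median log2 change was -0.14 in BMDM, -0.12 in hMPDM and 0.12 in RAW, it was higher in 9 and lower in 2 in hMPDM and higher in 17 and lower in 1 in RAW. For clock genes it was higher in 1 in hMPDM, and higher in 7 and lower in 1 in RAW.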

How the results depend on the processing

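With library totals in place of TMM, 784 genes were over 2-fold higher and 1120 lower, 1997 were higher and 7616 lower in the test against no change, and the RAW response was higher than that of BMDM in 3052 genes and lower in 987. DESeq2 gave 704 genes over 2-fold higher and 177 lower, 2431 higher and 1728 lower against no change, 120 higher and 144 lower for hMPDM against BMDM, and 413 higher and 961 lower for RAW. With the coefficient of variation set at 10%, 2525 genes were higher against no change, the hMPDM response was higher in 50 and lower in 73 genes and the RAW response higher in 452 and lower in 759. The 10% setting also gave 2636 genes lower against no change, beside 3870 in the main fit, and 934 over 2-fold higher and 432 lower. Fits with a replicate block gave 1033 genes over 2-fold higher and 533 lower. Same-numbered libraries did not deviate together over all tested genes (correlation -0.035). A value over all genes, many of them with few counts, cannot tell whether they share a culture or a batch.

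Leaving out each BMDM library in turn gave 972 to 1026 genes over 2-fold higher and 410 to 497 lower, 3455 to 3916 higher and 3113 to 3604 lower against no change, 430 to 540 higher and 460 to 552 lower for hMPDM, and 1176 to 1233 higher and 1563 to 1727 lower for RAW. Of the 1555 genes past the over 2-fold test 1309 were kept with library totals, 881 with DESeq2 and 1327 to 1451 without 1 library.

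Among the named genes, library totals turned Ccl6 to -0.23, Clock to -0.15, Ifitm2 to -0.0060, Ticam1 to -0.20 and Traf6 to -0.089 on the log2 scale. Of 195 named genes, library totals ended the over 2-fold call of Aim2, Ccnd2, Dusp16, Plekhn1, Psmb8 and Pttg1, a coefficient of variation of 10% that of Ccnd1 and Trib1, and DESeq2 that of Dbp, Dusp16, E2f7, Elovl6, Gfi1, Gpr35, Hspa1a, Ier5l, Il16, Kif18a, Npas2, Nr1d1, Peli2, Per2, Plekhn1, Pttg1, Ptx3, Trib1 and Zfp36l1, and leaving out 1 library ended none of them. Depth limits genes under about 3 counts per library, where ratios have wide counting intervals.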
